A study of Homo sapiens with 29 samples.

Results

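The inhibitor of differentiation genes ID1, ID2, ID3 and ID4 and 6 genes of myostatin, activin and BMP signaling (MSTN, INHBA, BMP4, FST, SMAD6 and SMAD7) were followed through ZNF148 knockdown in LHCN-M2 human myoblasts. These 10 genes were taken as a list of names, and their probes were found through the RefSeq accession that the array files give for each probe. They are 10 of the 22439 genes named on the arrays, and 9 of them are among the 18432 genes with a probe that could be tested. After ZNF148 knockdown ID1 fell at 48 and 96 h in growth media while ID3 rose, BMP4, MSTN and FST rose at most times, and SMAD6 fell in differentiation media. MSTN was close to background, and its calls at 96 h depended on single arrays. INHBA rose at 96 h in both media, ID2 was called at 96 h in differentiation media alone, and SMAD7 was not called for the knockdown.

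ID proteins are helix-loop-helix proteins that lack a DNA-binding region. They pair with E proteins, the partners that myogenic factors such as MYOD need to bind E-boxes, and so hold back muscle differentiation. Their genes are classical targets of BMP signaling. Myostatin, encoded by MSTN, and activin A, a dimer of the INHBA product, bind activin type II receptors and restrain muscle growth, and BMP4 signals through BMP receptors. Follistatin, encoded by FST, binds and neutralizes activin and myostatin. SMAD6 and SMAD7 are inhibitory SMADs that are themselves induced by the signals they damp, SMAD6 acting mostly on the BMP branch and SMAD7 on both branches.

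LHCN-M2 is an established line of human myoblasts, immortalized by telomerase and CDK4, and the study used this 1 line. All cells were transfected with 20 nM siRNA, either nontargeting (siControl) or against ZNF148 (siZNF148), and no untransfected group was analysed here. Cells were harvested at 24 h (subconfluent), 48 h or 96 h (both confluent) in growth media (GM), or at 48 h or 96 h in differentiation media (DM). By the study's methods the media were changed some days after transfection in the DM experiments, so that GM and DM arrays of the same hour may differ in their time since transfection. There were 29 one-colour Agilent arrays in 10 groups of 3, with 2 for siControl at 96 h in GM. The labels do not say whether the arrays of a group came from separate cultures, so the p-values measure the spread between these samples, which may be technical.

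ZNF148 was lower in every siZNF148 group, with log2 differences of -1.53 (24 h GM), -2.08 (48 h GM), -2.30 (96 h GM), -2.34 (48 h DM) and -2.74 (96 h DM). Of 7 myoblast markers, 6 or 7 were well above background on each array. PI16 (fibroblast), PLIN1 and LEP (adipocyte) were well above background on no array, whereas LUM (fibroblast), CDH5 (endothelium), CIDEC (adipocyte) and CD14 (immune) were so on all 29. The summed level of 7 myotube markers lay between 7.92 and 8.16 in both 24 h groups, between 19.8 and 20.3 in the later siZNF148 groups and between 10.01 and 18.7 in the later siControl groups. The summed level of 7 proliferation markers was 12.3 to 12.5 with siZNF148 against 14.9 to 15.4 with siControl at 48 h in GM, 12.0 against 15.1 at 96 h, 11.7 to 11.8 against 12.9 at 48 h in DM and 11.4 to 11.5 against 13.2 at 96 h. The summed level of the immune markers was lower with siZNF148 at 24 h in GM (9.97 to 10.07 against 10.11 to 10.26). It was also lower at 48 h in GM (9.03 to 9.32 against 10.9 to 11.4), at 96 h in GM (8.81 to 9.07 against 11.9 to 12.0) and at 96 h in DM (7.68 to 7.90 against 8.30 to 8.49), and overlapped at 48 h in DM (8.11 to 8.44 against 7.92 to 9.0). The myoblast sum was 17.3 to 17.4 with siZNF148 against 16.6 to 16.7 at 24 h and 19.1 to 19.2 against 16.8 to 18.7 later, without overlap in any pair of groups. The adipocyte sum was also higher in each pair, at 9.53 to 10.1 against 8.92 to 9.53. It rests largely on CIDEC, as ADIPOQ was well above background on 4 arrays and PLIN1 and LEP on none. The endothelial sum was lower with siZNF148 in every later pair, as at 48 h in DM (7.468 to 7.944 against 8.355 to 8.785). The fibroblast sum was lower at 48 h in DM (11.192 to 11.31 against 12.356 to 12.742) and at 96 h in DM. There it rests largely on LUM, the brightest of the 6 genes. The median of the 6 genes went the other way in DM. It was 5.947 to 6.343 with siZNF148 against 4.023 to 4.5 at 48 h, and 6.881 to 7.149 against 4.317 to 4.768 at 96 h. On those siControl arrays 3 of the genes were well above background. The fibroblast sum was higher at 96 h in GM and overlapped at 48 h in GM. At 24 h the endothelial and fibroblast sums overlapped. These shifts moved with the knockdown effects below, and their part in the results was not tested. At 24 h the myotube sums of both siRNA groups overlapped, and the proliferation sum was 15.8 to 15.9 with siZNF148 against 15.3. In these bulk samples, fewer cells of a type and less RNA per cell cannot be told apart. Replicate 1 of siControl at 48 h in GM stood apart with the myotube sum of 18.7, so the values without it are given beside the results that rest on it. All 24 h arrays shared 1 slide and 1 scan and the others lay on the other slides and another scan, so 24 h levels were not tested against later ones.

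The values are the authors' quantile-normalized log2 signals, on which a step of 1 is a 2-fold difference. A gene was called changed at an adjusted p under 0.05 (limma, Benjamini-Hochberg over all 38839 tested probes) and a difference of more than 2-fold. ID1, ID2, ID3, INHBA, FST, SMAD6 and SMAD7 were well above background on all 29 arrays, BMP4 on 27, MSTN on 14 and ID4 on 1. Signals of different probes are not compared as levels. Values of the siControl and siZNF148 arrays are given in the order of their replicate numbers, and log2 differences are siZNF148 minus siControl with the standard error (SE).

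Promoter windows of 5 members are shown as examples, chosen after the data were seen. At 48 and 96 h in GM ID1 fell and ID3 rose, and ID2 differed least of the tested ID genes. MSTN rose and SMAD6 fell in DM. Windows of other members with called changes, such as BMP4, FST and INHBA, are not shown. The sequences are RefSeq windows on GRCh38.p14 that run from 250 bases before to 50 bases after the transcription start, read on the gene's strand, at chr20:31605039-31605338 on the plus strand (ID1), chr2:8681806-8682105 on the plus strand (ID2), chr1:23559452-23559751 on the minus strand (ID3), chr2:190062680-190062979 on the minus strand (MSTN) and chr15:66701986-66702285 on the plus strand (SMAD6). Capitals mark any match, on either strand, to the E-box CANNTG, to GGCGCC, to the SMAD element CAGAC or to GGGGGTG, a G-rich run that ends like the ZNF148 site the study describes.
ID1: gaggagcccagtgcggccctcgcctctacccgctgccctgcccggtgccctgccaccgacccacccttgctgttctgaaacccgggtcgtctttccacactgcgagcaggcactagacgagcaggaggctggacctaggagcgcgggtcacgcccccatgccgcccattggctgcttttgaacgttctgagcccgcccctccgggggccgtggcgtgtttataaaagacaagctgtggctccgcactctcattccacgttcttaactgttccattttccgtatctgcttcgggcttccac
ID2: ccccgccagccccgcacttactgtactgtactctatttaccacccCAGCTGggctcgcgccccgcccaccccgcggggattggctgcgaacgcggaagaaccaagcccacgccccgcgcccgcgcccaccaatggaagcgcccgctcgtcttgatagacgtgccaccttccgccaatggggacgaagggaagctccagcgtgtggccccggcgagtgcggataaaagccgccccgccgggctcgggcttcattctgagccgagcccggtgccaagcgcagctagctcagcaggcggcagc
ID3: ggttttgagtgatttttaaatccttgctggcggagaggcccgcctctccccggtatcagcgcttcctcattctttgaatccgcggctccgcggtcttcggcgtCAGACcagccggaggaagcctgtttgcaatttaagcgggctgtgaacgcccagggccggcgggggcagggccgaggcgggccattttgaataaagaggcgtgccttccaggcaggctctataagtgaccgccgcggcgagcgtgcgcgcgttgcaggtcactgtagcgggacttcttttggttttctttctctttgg
MSTN: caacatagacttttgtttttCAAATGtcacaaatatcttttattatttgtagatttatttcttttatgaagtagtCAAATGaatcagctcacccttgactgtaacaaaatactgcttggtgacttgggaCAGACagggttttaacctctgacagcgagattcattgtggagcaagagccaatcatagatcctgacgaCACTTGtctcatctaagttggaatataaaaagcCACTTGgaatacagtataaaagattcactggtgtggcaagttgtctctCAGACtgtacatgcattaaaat
SMAD6: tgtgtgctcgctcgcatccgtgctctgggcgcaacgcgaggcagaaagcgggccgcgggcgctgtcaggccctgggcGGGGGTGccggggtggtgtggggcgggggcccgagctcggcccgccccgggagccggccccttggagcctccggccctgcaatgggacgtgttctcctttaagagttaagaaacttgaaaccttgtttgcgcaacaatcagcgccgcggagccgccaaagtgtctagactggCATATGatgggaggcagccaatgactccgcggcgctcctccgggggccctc

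The MSTN window held 4 E-boxes and 2 copies of CAGAC, the ID2 window 1 E-box and the ID3 window 1 CAGAC. SMAD6 had 1 E-box and 1 GGGGGTG, whereas the ID1 window matched none of the 4 motifs. Over all 14 windows of the 10 members, 9 held an E-box, 9 held CAGAC, 5 held GGGGGTG and 1, of BMP4, held GGCGCC. Of 34943 promoter windows of the same length in RefSeq, 68.7% held CANNTG, 45.3% CAGAC, 11.6% GGGGGTG and 19.2% GGCGCC. The G plus C content was 36.0% in the MSTN window and 62.7%, 69.0% and 59.7% in those of ID1, ID2 and ID3. Motif matches are descriptions of the letters, and no binding was measured on these arrays.

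ID1 was slightly higher with siZNF148 at 24 h in GM and then clearly lower at 48 and 96 h. At 24 h the siControl arrays read 14.29, 14.27 and 14.12 and the siZNF148 arrays 14.52, 14.53 and 14.47, a log2 difference of 0.28 (SE 0.11, adjusted p = 0.0661) that was not called. The 3 arrays of each group did not overlap. At 48 h in GM the siControl arrays read 12.11, 12.41 and 12.63 against 11.08, 11.07 and 10.98 with siZNF148. At 96 h in GM the values were 13.13 and 13.24 against 11.52, 11.75 and 11.62. ID1 thus fell by 1.34 (SE 0.11, 2.53-fold, adjusted p = 1.38e-09) at 48 h and by 1.56 (SE 0.12, 2.94-fold, adjusted p = 7.77e-10) at 96 h. Without replicate 1 of siControl at 48 h the value at 48 h was -1.48. Within single slides it ran from -1.55 to -1.04 at 48 h and was -1.44 at 96 h.

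In DM, ID1 was lower on every siZNF148 array too. The 48 h arrays read 9.41, 9.48 and 9.33 with siControl and 8.63, 8.39 and 8.68 with siZNF148, a difference of -0.84 (SE 0.11, adjusted p = 6.02e-07) that stayed under 2-fold. At 96 h the siControl arrays read 10.39, 10.38 and 10.20 and the siZNF148 arrays 7.83, 7.61 and 7.80. This fall of 2.58 (SE 0.11, 5.97-fold, adjusted p = 4.48e-14) was the largest knockdown difference of any ID gene and the largest decrease among all 9 tested members over the 5 knockdown comparisons.

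ID2 differed less between the siRNAs. In GM the siControl and siZNF148 arrays read 12.76, 12.69 and 12.64 against 12.19, 12.22 and 12.40 at 24 h, 11.97, 12.03 and 12.12 against 12.06, 11.88 and 11.79 at 48 h, and 12.68 and 12.82 against 12.41, 12.53 and 12.49 at 96 h. The groups overlapped at 48 h alone among the times in GM, and the differences of -0.42 (adjusted p = 0.0101), -0.13 (adjusted p = 0.405) and -0.27 (adjusted p = 0.102, limma) were not called. Without replicate 1 of siControl the 48 h difference was -0.17. At 48 h in DM the arrays read 11.23, 10.98 and 10.68 against 10.20, 10.53 and 10.58 (-0.52, SE 0.12, adjusted p = 6.04e-04, under 2-fold). ID2 fell at 96 h in DM, from 10.78, 10.80 and 10.89 to 9.84, 9.59 and 9.81, by 1.07 (SE 0.12, 2.10-fold, adjusted p = 1.08e-07). A second ID2 probe gave -1.06 there. The 96 h DM value was -0.995 without replicate 2 of siZNF148 and -0.95 with normexp background correction, both under 2-fold.

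ID3 was higher with siZNF148 at each time in GM, opposite to ID1 at 48 and 96 h but not at 24 h. At 24 h the siControl arrays read 11.82, 11.71 and 11.66 and the siZNF148 arrays 12.51, 12.57 and 12.76, a difference of 0.88 (SE 0.17, adjusted p = 3.5e-04) that was under 2-fold, and 1.01 with scaling to the 75th percentile. At 48 h the siControl arrays read 9.69, 8.72 and 8.83 and the siZNF148 arrays 10.84, 10.81 and 10.84. At 96 h the values were 10.04 and 10.07 against 11.5, 11.54 and 11.51. ID3 rose by 1.75 (SE 0.17, 3.36-fold, adjusted p = 1.58e-08) at 48 h and by 1.46 (SE 0.18, 2.75-fold, adjusted p = 9.91e-07) at 96 h. The high siControl value at 48 h was that of replicate 1, and without it the rise was 2.05.

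In DM the ID3 difference was smaller. The siControl arrays read 8.50, 8.64 and 8.77 at 48 h and 9.30, 9.11 and 9.19 at 96 h, and the siZNF148 arrays 9.37, 9.13 and 9.38 and then 9.11, 9.40 and 9.01. The differences were 0.66 (SE 0.17, adjusted p = 0.00173, under 2-fold) and -0.03 (95% interval -0.37 to 0.32, adjusted p = 0.928), with overlapping groups at 96 h. ID4 had a single probe, well above background on 1 array (replicate 3 of siControl at 96 h in DM, 5.75), so it was not tested. Its signals on the other 28 arrays lay from 1.96 to 4.18 and were not well above background.

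**Figure D1:**
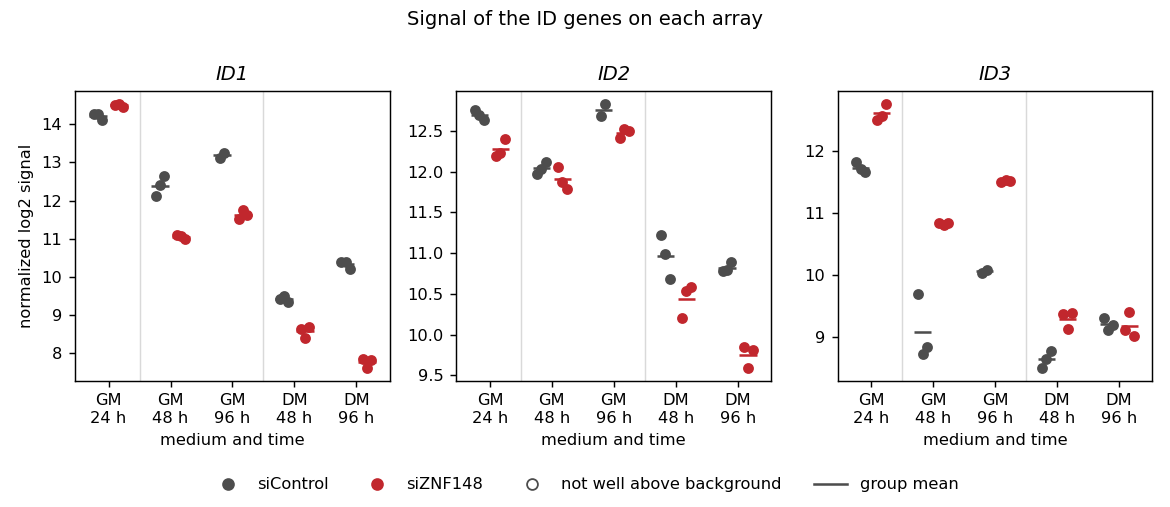
Normalized log2 signal of ID1, ID2 and ID3 (y axis, one scale per gene) on each array by medium and time (x axis), with siControl in grey, siZNF148 in red and bars at group means. ID1 and ID2 were lower in DM than in GM in both siRNA groups, and the ID3 arrays of siZNF148 lay above those of siControl at all 3 times in GM.

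Among the ligands, MSTN was close to background, and none of its siControl arrays in GM was well above it. In GM it read 2.29, 2.41 and 2.31 with siControl and 4.64, 2.46 and 3.1 with siZNF148 at 24 h, where neither group was above background (1.06, SE 0.44, adjusted p = 0.0918, not called, and 1.53 with adjusted p = 0.0175 without replicate 2 of siZNF148). At 48 h the values were 3.12, 2.32 and 3.04 against 6.18, 5.14 and 5.24, and at 96 h 4.02 and 2.67 against 5.03, 5.06 and 4.26. All siZNF148 arrays at 48 and 96 h were well above background. MSTN was at least 2.51-fold higher with siZNF148 at 48 h (adjusted p = 2.52e-05, limma) and at least 1.60-fold higher at 96 h (adjusted p = 0.0211). The measured 48 h difference was 2.69, and it was 2.84 without replicate 1 of siControl. The bounds take for siControl the lowest signal well above background on each array or the probe's own where that was higher.

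In DM some siControl arrays reached the background limit. MSTN read 4.06, 4.33 and 3.80 with siControl and 6.03, 6.06 and 6.25 with siZNF148 at 48 h, and 4.53, 5.20 and 3.97 against 5.88, 5.70 and 5.98 at 96 h. Only 1 of the 3 siControl arrays was well above background at each of these times. MSTN rose by 2.05 (SE 0.44, adjusted p = 4.05e-04) at 48 h and by 1.29 (SE 0.44, adjusted p = 0.0195) at 96 h. The 96 h calls depended on single arrays. In GM the difference of 1.44 became 0.76 (adjusted p = 0.361) without replicate 2 of siControl, and 1.32 and 1.3 (adjusted p = 0.0641 and 0.0648) without replicates 1 and 2 of siZNF148. In DM it became 0.99 (adjusted p = 0.106) without replicate 3 of siControl and 1.23 (adjusted p = 0.0543) without replicate 3 of siZNF148. With normexp background correction, whose added offset narrows the folds of dim probes, the MSTN differences were 0.67 and 0.23 in GM and 0.70 and 0.42 in DM at 48 and 96 h, none of them over 2-fold.

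INHBA turned with time. At 24 h in GM it read 9.34, 9.26 and 9.17 with siControl and 8.49, 8.51 and 8.57 with siZNF148, a difference of -0.73 (SE 0.09, adjusted p = 3.96e-06, under 2-fold). At 48 h it read 8.90, 8.87 and 9.0 against 9.15, 9.26 and 9.08 (0.24, SE 0.09, adjusted p = 0.0419, under 2-fold, and 0.22 with adjusted p = 0.0892 without replicate 1 of siControl). By 96 h the siControl arrays were at 9.17 and 9.11 and the siZNF148 arrays at 11.30, 11.55 and 11.35, so that INHBA rose by 2.26 (SE 0.10, 4.79-fold, adjusted p = 2.61e-13). The order of the groups was thus reversed between 24 and 96 h, with no overlap at any time in GM.

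In DM the sign also differed between the times, from lower with siZNF148 at 48 h to higher at 96 h. INHBA read 8.70, 8.90 and 8.88 with siControl and 8.07, 7.89 and 8.09 with siZNF148 at 48 h (-0.81, SE 0.09, adjusted p = 1.26e-07, under 2-fold). At 96 h it read 9.50, 9.53 and 9.41 against 10.56, 10.29 and 10.69, a rise of 1.04 (SE 0.09, 2.05-fold, adjusted p = 5.17e-09). That rise was 0.95 without replicate 3 of siZNF148 and 0.96 with normexp, both under 2-fold.

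BMP4 was higher with siZNF148 from the first time on. At 24 h it read 5.53, 5.08 and 5.41 with siControl and 7.37, 7.46 and 7.43 with siZNF148, the largest of its rises at 2.08 (SE 0.22, 4.23-fold, adjusted p = 3.11e-07). At 48 h in GM the values were 5.30, 4.51 and 4.83 against 6.03, 6.57 and 6.23, and at 96 h 5.06 and 5.34 against 6.41, 6.4 and 6.55. These rises were 1.4 (SE 0.22, 2.63-fold, adjusted p = 1.25e-05) and 1.25 (SE 0.24, 2.38-fold, adjusted p = 1.83e-04). Replicate 2 of siControl was not well above background at either 24 or 48 h. Without replicate 1 of siControl at 48 h the 48 h rise was 1.61. With normexp the 48 and 96 h differences were 0.6 and 0.46, under 2-fold.

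In DM the BMP4 arrays read 4.86, 4.17 and 4.41 with siControl and 5.84, 5.09 and 5.81 with siZNF148 at 48 h, and 5.62, 5.57 and 5.61 against 6.09, 5.73 and 6.28 at 96 h. BMP4 rose by 1.1 (SE 0.22, 2.14-fold, adjusted p = 1.57e-04) at 48 h, and the difference of 0.43 (95% interval -0.02 to 0.88, adjusted p = 0.108) at 96 h was not called. The 48 h rise was under 2-fold without any 1 of replicate 2 of siControl (0.95), replicate 1 of siZNF148 (0.97) or replicate 3 of siZNF148 (0.99). It was 0.36 with normexp, and it ran from 0.24 to 1.64 within single slides.

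FST, the antagonist of activin and myostatin, was higher with siZNF148 at 24 h, from 9.98, 9.82 and 9.94 to 11.32, 11.24 and 11.15 (1.33, SE 0.16, 2.51-fold, adjusted p = 2.46e-06). At 48 h in GM the siControl arrays read 11.21, 10.47 and 10.48 and the siZNF148 arrays 12.21, 12.13 and 12.06, a rise of 1.42 (SE 0.16, 2.67-fold, adjusted p = 2.2e-07). Replicate 1 of siControl was again the high value, and without it the rise was 1.66. At 96 h the values were 10.90 and 10.98 against 11.56, 11.64 and 11.63 (0.67, SE 0.18, adjusted p = 0.0042, under 2-fold).

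In DM the FST arrays read 10.75, 10.31 and 9.98 with siControl and 11.60, 11.48 and 11.65 with siZNF148 at 48 h, a rise of 1.23 (SE 0.16, 2.35-fold, adjusted p = 8.99e-07). At 96 h the siControl arrays, at 11.43, 11.37 and 11.31, lay above the siZNF148 arrays at 10.89, 11.10 and 11.00, and the difference of -0.37 (95% interval -0.71 to -0.04, adjusted p = 0.062) was not called.

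**Figure D2:**
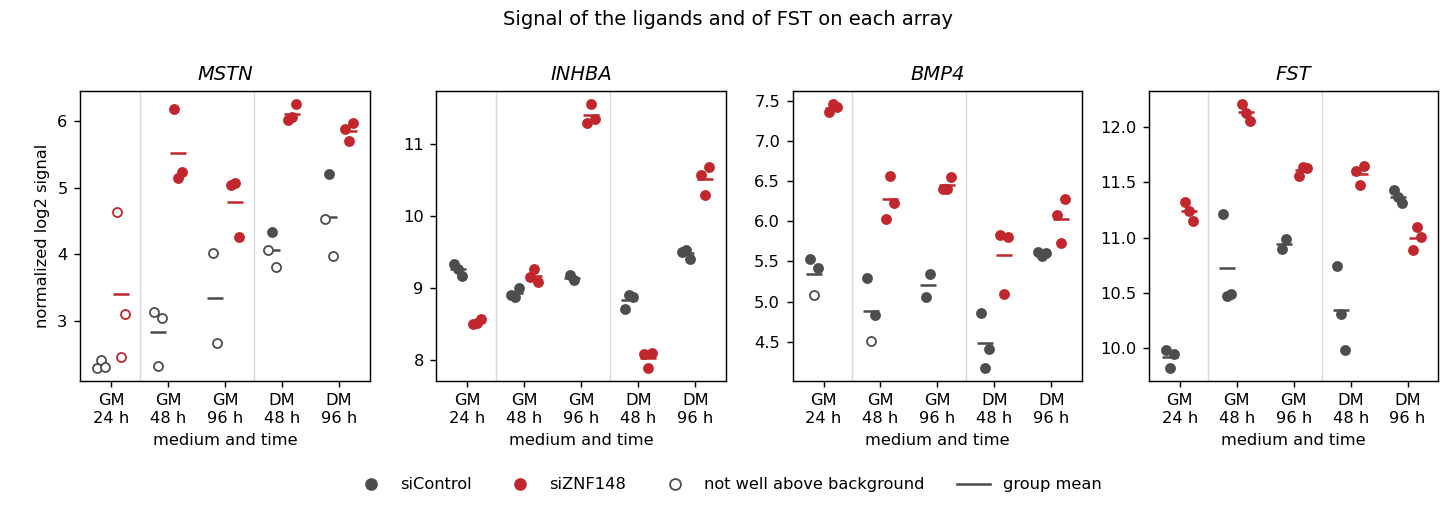
Normalized log2 signal of MSTN, INHBA, BMP4 and FST (y axis, one scale per gene) on each array by medium and time (x axis), with siControl in grey, siZNF148 in red, open points not well above background and bars at group means. MSTN was above background with siControl on 1 array at each time in DM and on none in GM, and INHBA was highest with siZNF148 at 96 h in GM, at 11.30 to 11.55.

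SMAD6, the inhibitory SMAD of the BMP branch, fell in DM and was not called in GM. In GM it read 7.58, 7.31 and 7.05 with siControl and 7.98, 8.12 and 8.05 with siZNF148 at 24 h (0.74, SE 0.13, adjusted p = 2.07e-04), and 7.27, 7.2 and 7.33 against 8.04, 7.99 and 7.63 at 48 h (0.62, SE 0.13, adjusted p = 4.23e-04). Both differences were under 2-fold, with no overlap between the groups. At 96 h it read 7.55 and 7.49 against 7.37, 7.47 and 7.45 (-0.09, 95% interval -0.39 to 0.22, adjusted p = 0.705).

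In DM, SMAD6 read 7.55, 7.52 and 7.66 with siControl and 6.12, 6.00 and 6.51 with siZNF148 at 48 h, a fall of 1.36 (SE 0.13, 2.57-fold, adjusted p = 8.58e-09). At 96 h it read 7.45, 7.52 and 7.35 against 5.34, 5.25 and 5.05, a fall of 2.22 (SE 0.13, 4.66-fold, adjusted p = 8.08e-12). Within single slides these falls ran from -1.55 to -1.01 and from -2.43 to -2.09. With normexp the 48 h value was -0.86, under 2-fold.

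SMAD7 was not called in any of the 5 knockdown comparisons. In GM it read 8.07, 8.06 and 8.11 with siControl against 8.08, 8.09 and 8.34 with siZNF148 at 24 h. The 48 h values were 8.78, 8.27 and 8.15 against 8.21, 8.48 and 8.55, and those of 96 h 8.66 and 8.70 against 9.07, 9.08 and 9.27. In DM the values were 7.36, 7.01 and 6.06 against 7.33, 6.91 and 7.22 at 48 h and 8.26, 8.16 and 8.20 against 7.54, 7.47 and 7.47 at 96 h. The groups overlapped at 24 h, and at 48 h in both media, and without replicate 1 of siControl the 48 h GM difference was 0.2. The largest difference was -0.71 (95% interval -1.16 to -0.26, adjusted p = 0.00883, under 2-fold) at 96 h in DM, and unadjusted p-values were under 0.05 there alone.

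**Figure D3:**
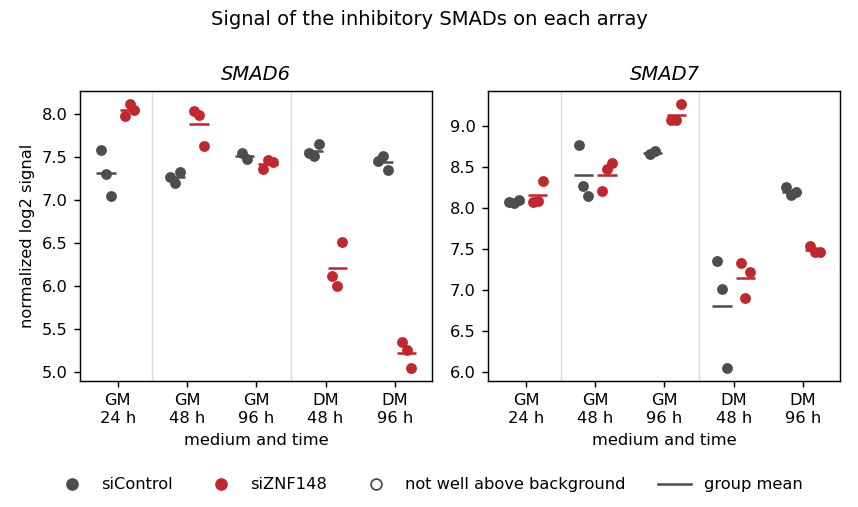
Normalized log2 signal of SMAD6 and SMAD7 (y axis, one scale per gene) on each array by medium and time (x axis), with siControl in grey, siZNF148 in red and bars at group means. The SMAD6 arrays of siZNF148 in DM, at 5.05 to 6.51, lay below all other SMAD6 values.

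Counted together, 2 of the 9 tested members were called at 24 h in GM (FST and BMP4, both higher), where 5.47% of all tested genes were called. At 48 h in GM 5 were called, 4 of them higher (FST, ID3, MSTN and BMP4) and 1 lower (ID1), with 23.9% of all genes called. At 96 h in GM again 5 were called, 4 higher (INHBA, ID3, MSTN and BMP4) and ID1 lower, against 24.7%. The MSTN bound there was under 2-fold, as no siControl array was well above background. In DM 4 were called at 48 h (FST, MSTN and BMP4 higher, SMAD6 lower), against 32.3%, and 5 at 96 h (INHBA and MSTN higher, ID1, ID2 and SMAD6 lower), against 23.2%. The median difference of the members was 0.74, 0.62 and 0.67 at the 3 times in GM, 0.34 at 48 h and -0.37 at 96 h in DM, beside medians of -0.001 to -0.063 over all genes. No member was called in all 5 comparisons, and MSTN and BMP4 were called higher in 4 of them. Within single slides that held both siRNA groups, the 48 h GM differences ran from 1.12 to 2.12 for ID3, from 2.02 to 3.15 for MSTN, from 1.2 to 1.72 for BMP4 and from 0.93 to 1.73 for FST. In DM they ran from 0.73 to 1.63 for FST at 48 h, from 1.92 to 2.23 and from 1.12 to 1.73 for MSTN at 48 and 96 h, from 0.89 to 1.17 for INHBA and from -1.29 to -0.98 for ID2 at 96 h.

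**Figure D4:**
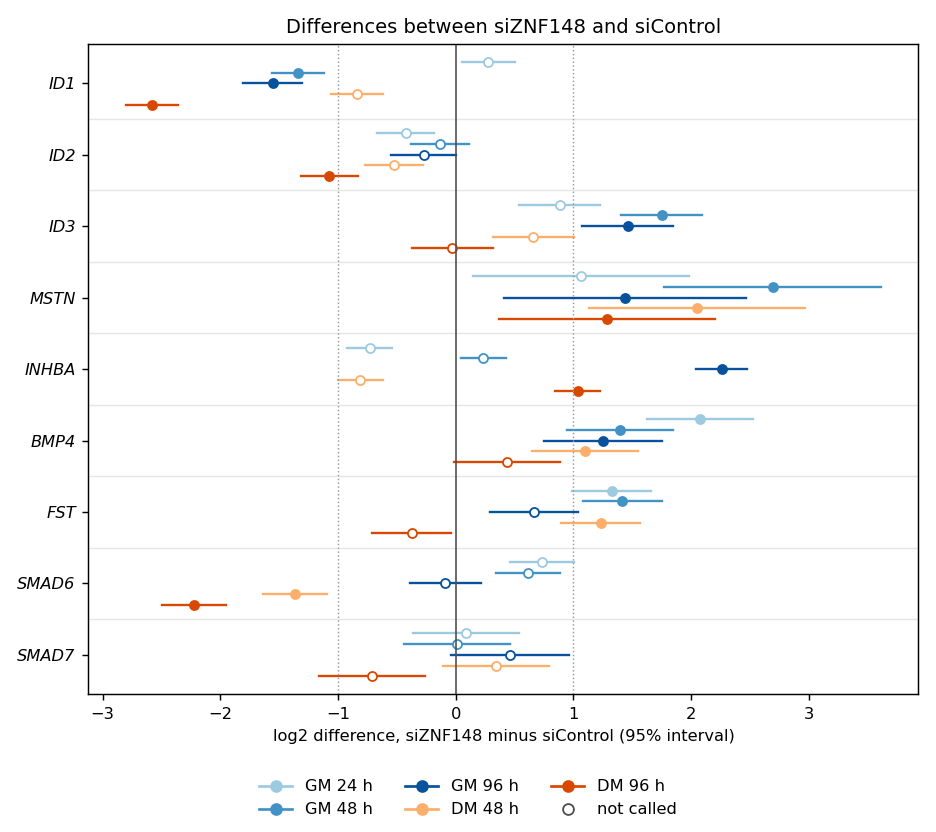
Log2 difference between siZNF148 and siControl with its 95% interval (x axis) for the 9 tested members (y axis) in the 5 knockdown comparisons, filled where called and open where not. Dotted lines mark 2-fold. ID1 lay below 0 in all comparisons but 24 h, BMP4 and MSTN above 0 in all 5, and INHBA and SMAD6 on both sides of 0. At 24 h no MSTN array of either group was well above background.

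Whether a knockdown effect differed between times or media was tested as a difference of differences. Between 24 and 48 h in GM, 2 members were called (20.5% of all genes): ID1, whose effect moved by -1.62 (SE 0.15, adjusted p = 3.63e-08), and MSTN, by 1.63 (SE 0.62, adjusted p = 0.0481). The MSTN value takes signals that were not well above background in both 24 h groups and in siControl at 48 h, so no change of its effect is read from it. Without replicate 1 of siControl at 48 h the values were -1.75 for ID1 and 1.78 for MSTN. The MSTN call was lost without any 1 of 8 arrays, with values from 1.16 to 1.73. ID3 moved by 0.87 (adjusted p = 0.00549, under 2-fold), and by 1.17 without replicate 1 of siControl at 48 h. Between 48 and 96 h in GM only INHBA was called (5% of all genes), by 2.02 (SE 0.14, adjusted p = 2.37e-09), and by 2.04 without that array.

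Between DM and GM at 48 h, 3 members were called, all with a lower effect in DM (17.1% of all genes). These were SMAD6 (-1.98, SE 0.18, adjusted p = 2.61e-08), ID3 (-1.09, SE 0.23, adjusted p = 8.23e-04) and INHBA (-1.05, SE 0.13, adjusted p = 1.63e-06). At 96 h 6 were called, again all lower in DM (12.4% of all genes). SMAD6 differed by -2.13 (SE 0.20, adjusted p = 7.96e-08), ID3 by -1.49 (SE 0.25, adjusted p = 1.16e-04), INHBA by -1.22 (SE 0.14, adjusted p = 1.24e-06), SMAD7 by -1.17 (SE 0.32, adjusted p = 0.0103), FST by -1.04 (SE 0.24, adjusted p = 0.0028) and ID1 by -1.02 (SE 0.16, adjusted p = 6.12e-05). The calls of ID1, FST, INHBA and ID3 closest to 2-fold changed with single arrays. Without 1 array ID1 at 96 h was as small as -0.95 and FST -0.99, and at 48 h INHBA was as small as -0.98 and ID3 -0.91, and ID3 was at -1.4 without replicate 1 of siControl in GM. With normexp SMAD7 was at -0.81 and ID1 at -0.72 at 96 h, both under 2-fold.

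The media comparison asked how the same genes differed between differentiation and growth media within each siRNA, with the limit on time since transfection given above. ID1 and ID2 fell in DM in all 4 media comparisons. With siControl ID1 fell by 2.98 (SE 0.11, 7.87-fold, adjusted p = 3.99e-15; -3.11 without replicate 1 in GM) at 48 h and by 2.86 (SE 0.12, 7.26-fold, adjusted p = 1.47e-13) at 96 h. With siZNF148 it fell by 2.48 (SE 0.11, 5.57-fold, adjusted p = 2.32e-12) and by 3.88 (SE 0.11, 14.7-fold, adjusted p = 5.46e-16). The fall at 96 h with siZNF148 was the largest difference of any member in the 17 comparisons.

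At 48 and 96 h the fall of ID2 gave differences of -1.08 and -1.93 with siControl (adjusted p = 1.35e-07 and 2.26e-10, limma) and of -1.47 and -2.73 with siZNF148 (adjusted p = 2.02e-08 and 7.57e-13). The siControl value at 48 h was -1.11 without replicate 1 in GM and -0.93 without replicate 3 in DM, the latter under the 2-fold limit. ID3 fell in DM with siZNF148, by 1.54 at 48 h (SE 0.17, adjusted p = 1.04e-06) and by 2.35 at 96 h (SE 0.17, adjusted p = 1.49e-09). With siControl it differed by -0.44 and -0.86 (adjusted p = 0.0371 and 8.63e-04, both under 2-fold), the first of these being -0.14 (adjusted p = 0.357) without replicate 1 in GM.

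SMAD6 fell in DM with siZNF148, by 1.68 (SE 0.13, adjusted p = 1.4e-08) at 48 h and by 2.21 (SE 0.13, adjusted p = 1.14e-10) at 96 h. With siControl its differences were 0.31 (95% interval 0.03 to 0.58) and -0.08 (95% interval -0.38 to 0.23). SMAD7 fell with siControl at 48 h by 1.59 (SE 0.22, adjusted p = 2.87e-06) and with siZNF148 by 1.26 at 48 h and by 1.65 at 96 h. At 96 h with siControl the SMAD7 difference was -0.48 (adjusted p = 0.145), and the 48 h value ran from -2.72 to -0.91 within single slides and was -1.4 without replicate 1 in GM. The call at 48 h was lost with the methods' t-test after Benjamini-Hochberg adjustment. INHBA fell with siZNF148 at 48 h by 1.15 (SE 0.09, adjusted p = 2.22e-08), and its 96 h difference of -0.89 was under 2-fold. With normexp the 48 h value was -0.97, also under 2-fold.

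MSTN was the 1 member called higher in DM, with siControl at 48 h (1.23, SE 0.44, adjusted p = 0.0305), where 1 of 3 DM arrays and no GM array was well above background. Its mean in DM was 4.06, and the lowest signals well above background on the GM arrays were 3.844, 4.65 and 4.095. The mean of these limits, which the bound takes for GM, lay above the DM mean, so no fold is given. Without replicate 1 in GM it was 1.38 (adjusted p = 0.0335). That call was lost without any 1 of replicate 2 in GM (0.98), replicate 1 in DM (1.24) or replicate 2 in DM (1.1). With siControl at 96 h the MSTN difference was 1.22 (adjusted p = 0.0624), where again 1 of 3 DM arrays and no GM array was well above background, and it was called under 6 of the other settings, at 1.22 to 1.55, and at 1.9 and 1.52 without replicate 1 in GM or replicate 3 in DM. BMP4 and FST were not called in any media comparison, and the adjusted p of their 8 differences ran from 0.00797 to 0.237.

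In sum over the 9 tested members, 4 were called at 48 h with siControl (15.9% of all genes), 2 at 96 h with siControl (15.1%), 6 at 48 h with siZNF148 (3.96%) and 5 at 96 h with siZNF148 (6.4%). All of the calls with siZNF148 were lower in DM. The median difference of the members was -1.26 and -1.65 with siZNF148, beside 0.01 and -0.03 over all genes, and -0.40 and -0.08 with siControl, beside 0.01 and 0.00.

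**Figure D5:**
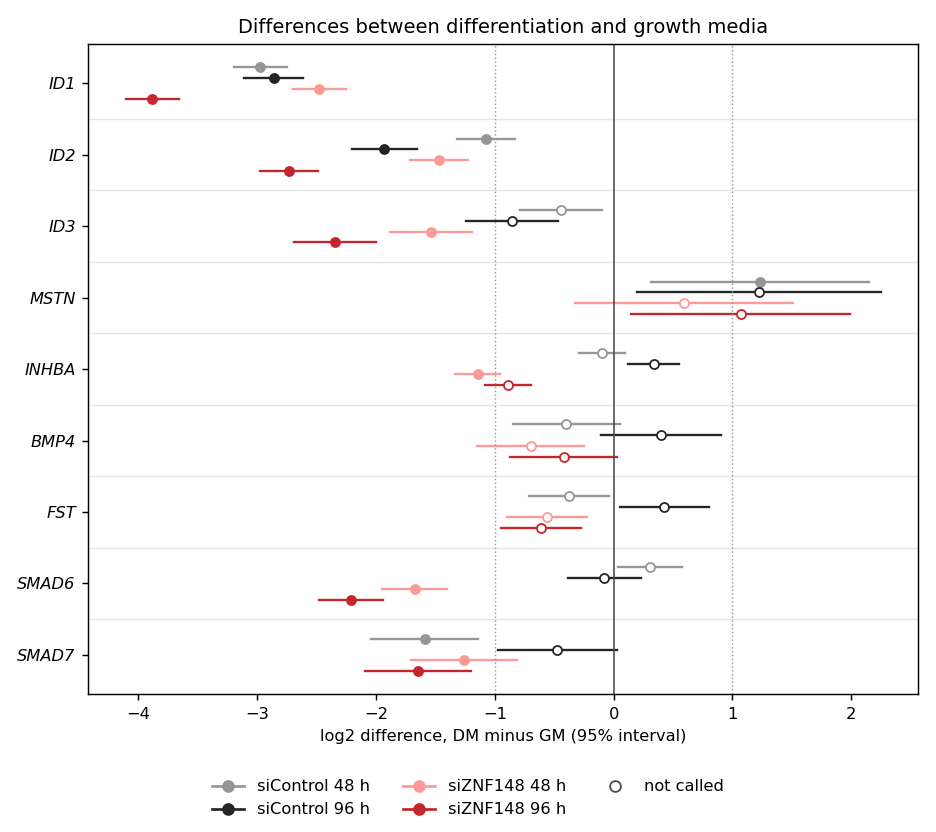
Log2 difference between differentiation media and growth media with its 95% interval (x axis) for the 9 tested members (y axis) in both siRNA groups at 48 and 96 h, filled where called and open where not. Dotted lines mark 2-fold. All intervals of ID1 and ID2 lay below 0, and those of SMAD6 lay below 0 with siZNF148 but not with siControl.

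Between 48 and 96 h, INHBA rose with siZNF148 in both media, by 2.24 in GM (SE 0.09, 4.73-fold, adjusted p = 2.05e-13) and by 2.5 in DM (SE 0.09, 5.65-fold, adjusted p = 1.21e-13), and was the 1 member called there in each (5.94% and 8.04% of all genes). With siControl in DM, 3 members rose (9.91% of all genes), SMAD7 by 1.4 (SE 0.22, adjusted p = 2.67e-05), BMP4 by 1.12 (SE 0.22, adjusted p = 3.21e-04) and FST by 1.03 (SE 0.16, adjusted p = 3.27e-05). The BMP4 and FST rises were under 2-fold without 1 DM array of siControl (0.97 for BMP4 and 0.84 and 0.997 for FST), and with normexp BMP4 was at 0.35 and SMAD7 at 0.94. SMAD6 with siZNF148 in DM was at -0.99 (adjusted p = 4.63e-06), just under 2-fold, and it was called without any 1 of 4 arrays, at -1.1 to -1.01. With siControl in GM limma called 0 members (0.445% of all genes), with 4 members at an unadjusted p under 0.05 and 0 called by the methods' t-test. ID3, at 0.98 (adjusted p = 0.00618), was closest, and it was called at 1.28 (adjusted p = 6.13e-07) without replicate 1 at 48 h, when 1.71% of all genes were called.

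Over all 10 groups ID1 had the widest range of group means, from 7.75 (siZNF148, 96 h DM) to 14.5 (siZNF148, 24 h GM), and the arrays of neighbouring groups in its order did not overlap. ID2 ran from 9.75 to 12.8 and ID3 from 8.64 (siControl, 48 h DM) to 12.6 (siZNF148, 24 h GM), with the 5 lowest ID3 groups overlapping their neighbours. For MSTN the groups with all arrays well above background were the 4 later siZNF148 groups, at means of 6.11 (48 h DM), 5.85 (96 h DM), 5.52 (48 h GM) and 4.79 (96 h GM), and the groups at background have no order. The SMAD6 means of 8 groups lay from 7.27 to 8.05, and those of both siZNF148 groups in DM below them (6.21 and 5.22). These orders set 24 h arrays beside arrays of another scan.

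Across the 10 group means, which share slides and the knockdown, ID1 and ID2 had a Pearson r of 0.91, and ID1 and ID3 of 0.74. Of 16224 genes compared, the pattern of ID1 was most like AP2M1 (r = 0.985), WNT5A (0.976) and TNFAIP8L3 (0.974), that of ID2 like UNC13C (0.95), and that of ID3 like HYOU1 (0.943). For INHBA it was IFI35 (0.949) and VDR (0.948), for BMP4 TRIAP1 (0.944), for FST PIK3R1 (0.957), for SMAD6 PTTG1IP (0.918) and for SMAD7 IGFBP1 (0.937). These are descriptions over 10 points.

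The wider pathway was described with lists of genes other than the members. Of 14 tested ligand genes, 2 were called higher at 24 h in GM, where 5.47% of all genes were called. At 96 h in GM, where 24.7% of all genes were called in either direction, 7 were higher and 1 lower, with a median difference of 0.98. TGFB2 rose by 3.44 (SE 0.30, adjusted p = 4.3e-09) and TGFB3 by 2.27 (SE 0.26, adjusted p = 2.19e-07) at 96 h, both encoding TGF-beta ligands, and BMP2, a BMP ligand, fell by 1.41 (SE 0.32, adjusted p = 0.00104). GDF11, the closest relative of myostatin, was not called in any knockdown comparison, with differences from -0.98 at 48 h to 0.44 at 96 h in DM.

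Of 18 tested antagonists, 7 were higher and 6 lower at 96 h in GM, with a median of -0.12, beside 24.7% of all genes called. FSTL3, a follistatin-like antagonist of activin and myostatin, was at -0.77 at 24 h (under 2-fold) and rose by 1.90 (2.25 without replicate 1 of siControl) at 48 h and 3.28 (SE 0.20, adjusted p = 2.18e-11) at 96 h in GM, and by 2.17 and 2.77 in DM. CHRD, which encodes the BMP-binding protein chordin, rose by 3.40 (SE 0.24, adjusted p = 1.83e-10) at 96 h in GM. Of 16 receptors and co-receptors, 3 were higher and 4 lower at 96 h in GM, beside the same 24.7% of all genes. ACVR2B, the type II receptor of myostatin and activin, rose in all 5 knockdown comparisons, by 2.36, 2.94 and 2.55 in GM and 3.03 and 2.48 in DM, the 48 h GM value being 3.54 without replicate 1 of siControl. TGFBR2, the type II receptor of TGF-beta, fell in all 5, by 2.99 to 3.65, and the value at 48 h in GM was -3.79 without that array. HJV, a BMP co-receptor, rose by 5.53 (SE 1.19, adjusted p = 5.66e-04) at 96 h in GM.

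Of 16 other SMADs and regulators, 1 was higher and 2 lower at 96 h in GM, a share below the 24.7% of all genes called. PMEPA1, an inhibitor of TGF-beta signaling, rose by 1.41 (adjusted p = 4.48e-05, limma). NEDD4L, a ubiquitin ligase, fell by 1.34 (adjusted p = 4.53e-10) and ZFYVE9, a SMAD anchor, by 1.32 (adjusted p = 3.48e-07, limma). Among the E proteins that ID proteins bind, the GM differences of TCF3, TCF4 and TCF12 were all under 2-fold, from -0.53 (TCF3 at 96 h) to 0.93 (TCF12 at 48 h), which was 1.06, over 2-fold, without replicate 1 of siControl. At 96 h in DM TCF4 fell by 1.47 (SE 0.06, adjusted p = 8.68e-14) and TCF12 by 1.47 (SE 0.13, adjusted p = 2.86e-09), and TCF3 was at -0.80.

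Among myogenic factors, MYOD1 rose by 1.13 (SE 0.12, adjusted p = 5.21e-07) at 24 h and by 1.32 (1.56 without replicate 1 of siControl) at 48 h in GM. MYOG, which marks entry into differentiation, was well above background on 1 of the 6 arrays at 24 h and rose by 4.06 (SE 0.61) at 48 h, or 5.26 without that array, and by 4.39 (SE 0.68, adjusted p = 1.53e-05) at 96 h in GM. MYF5 fell by 1.80 (SE 0.25, adjusted p = 4.57e-06) at 96 h in GM. Of 13 target genes of TGF-beta or BMP, 4 were higher and 4 lower at 96 h in GM (24.7% of all genes called), with a median of 0.45. At 96 h in DM 3 were higher and 7 lower (23.2% of all genes called), with a median of -1.36. COL1A1, HEY1 and CCN1 rose by 2.63 (SE 0.34), 2.33 (SE 0.53) and 2.26 (SE 0.20) at 96 h in GM.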

How the data were processed

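RNA of 29 LHCN-M2 samples was read on one-colour Agilent arrays of 62976 spots, 2075 of them control spots. The authors deposited, per array, the intensity of each spot as background-subtracted linear signal from Feature Extraction (10.7.3.1 per the file headers). They also deposited a matrix of quantile-normalized log2 values, used here as the main values, and its 140 control probes were left out here. Each matrix column had the highest correlation with its own array, the lowest being 0.99515. Between 41.6% and 56.5% of probes were well above background per array, and the number of arrays limits the precision.

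Probes were named by RefSeq accession (31104 probes, 22439 genes), and a probe was tested if 2 or more arrays had it well above background. A gene was represented by its brightest tested probe. Group means of all 29 arrays were fitted with limma 3.58.1 in R 4.3.3 (lmFit, eBayes, two-sided, Benjamini-Hochberg adjustment over 38839 probes). On simulated data for the knockdown at 24 and 96 h in GM, 69 to 75 of 100 changed probes were called at log2 changes of 1.5 and 2.5. False calls were 2 at 24 h and 4 at 96 h, so a change that was not called may have been missed. Contrasts were siRNA, media and time effects and differences of siRNA effects, and 24 h groups were not contrasted with later ones in level. Bounds on a fold take, for a group with no array well above background, the higher of the probe's own signal and the lowest signal well above background. Named genes outside the members were, per list, the 3 with the largest called knockdown difference at 96 h in GM (among probes that no array of either group had at background), plus TCF3, TCF4, TCF12, MYOD1, MYOG, ACVR2B, FSTL3 and GDF11 as partners or relatives of the members. 1 gene that this rule names is not reported here. Genes of like pattern were those with the highest Pearson r over the 10 group means, and up to 3 per member are given. Promoter motifs and within-slide values were added after the data were seen. The members and lists were chosen with earlier results of these data known. Normexp background correction used median foreground and background signals. Alternatives were 16 settings and leaving out each array in turn.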

Additional observations from a re-analysis of the deposited data

Results flagged for a closer look

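In 12 cases the knockdown effect of a member differed between times or media by the test of that difference (limma, adjusted p under 0.05 and over 2-fold). Between 24 and 48 h in GM the effect on ID1 moved by -1.62 (adjusted p = 3.63e-08) and that on MSTN by 1.63 (adjusted p = 0.0481), the latter from signals not well above background in both 24 h groups and in siControl at 48 h, so that no change is read from it. Between 48 and 96 h in GM the effect on INHBA moved by 2.02 (adjusted p = 2.37e-09). At 48 h the effect was lower in DM than in GM for SMAD6 (-1.98, adjusted p = 2.61e-08), ID3 (-1.09, adjusted p = 8.23e-04) and INHBA (-1.05, adjusted p = 1.63e-06). At 96 h it was lower in DM for SMAD6 (-2.13, adjusted p = 7.96e-08), ID3 (-1.49, adjusted p = 1.16e-04), INHBA (-1.22, adjusted p = 1.24e-06), SMAD7 (-1.17, adjusted p = 0.0103), FST (-1.04, adjusted p = 0.0028) and ID1 (-1.02, adjusted p = 6.12e-05). The SMAD6 arrays of siZNF148 lay below those of siControl at 48 and 96 h in DM. In GM they lay above at 48 h, under 2-fold, and the small difference at 96 h was not called. GM and DM arrays of the same hour may differ in their time since transfection, which cannot be told apart from the media here.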

How the results depend on the processing

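Over 16 other settings and the omission of each array in turn, 3327 of 3465 member values kept their side of the threshold, 71 lost their call and 67 gained one. No called value changed sign, and 30 values that were not called did. With values quantile-normalized anew from the scanner signals, all 153 member values kept their call. Without the 2-fold limit the knockdown called 6 (32.1% of all genes), 7 (57.6%) and 6 (56.1%) members at 24, 48 and 96 h in GM. In DM it called 8 (64.5%) at 48 h and 6 (58.7%) at 96 h. The media effect called 5 (49.3%) and 4 (43.5%) at 48 and 96 h with siControl, and 8 (18.8%) and 7 (28.3%) with siZNF148. The time effects called 3 (2.37%) and 7 (28.7%) members in GM with siControl and siZNF148, and 6 and 5 in DM. Differences of knockdown effects called 4 and 2 members between 24 and 48 h and between 48 and 96 h in GM. Between DM and GM they called 4 at 48 h and 7 at 96 h. In this setting the share of all genes called ran from 2.37% to 64.5% over the 17 comparisons. With normexp background correction (offset 50) the knockdown counts were 3 at 48 h (15.5% of all genes) and 3 at 96 h (16.3%) in GM. They were 1 at 48 h and 2 at 96 h (14.1%) in DM. With normexp 1 member was called for the time effect with siControl in DM (5.54% of all genes). The difference between 24 and 48 h and that between DM and GM at 48 h had 1 call each. The methods' t-test with Benjamini-Hochberg adjustment called 2 members for the media effect with siControl at 48 h, against 4. It lost MSTN at 96 h in both media and BMP4 at 48 h in DM, and the arrays of the contrast alone lost MSTN at 96 h in GM (adjusted p = 0.089). For the time effect with siControl in GM, array weights, the slide as a fixed block and leaving out replicate 1 at 48 h each gave 1 call, and array weights gave 2 for siZNF148 in DM. The difference between 24 and 48 h kept 1 call with no filter or with the arrays of that contrast alone. No excess of the members is read from counts given here without the share of all genes.

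Leaving out 1 array gave 3 to 5 members called for the knockdown at 96 h in DM, 0 to 1 for the time effect with siControl in GM, 1 to 2 for that with siZNF148 in DM and 1 to 3 for the difference between 24 and 48 h. The shares of all genes with all arrays were 23.2%, 0.445%, 8.04% and 20.5%. With 1 array left out, the share moved by over 1.5 times for the time effect with siControl in GM alone, to 1.19% to 1.71%. The share of all genes called was 2.37% to 64.5% over the 17 comparisons without the 2-fold limit. With normexp, 13 comparisons moved by over 1.5 times, to 0.228% to 16.3%, and the time effect with siControl in GM moved from 0.445% to 0.694% with array weights and 1.71% without replicate 1 at 48 h. Equal replicate numbers did not pair the samples (correlations of deviations from -0.16 to 0.123), and with the number as a replicate block 152 of 153 member values kept their call, while MSTN with siControl at 96 h was called higher in DM at 1.31 (adjusted p = 0.0351). Signal over background limits MSTN and ID4 most.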
